A study of Mus musculus with 6 samples.

Results

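The dystrophin-glycoprotein complex was represented by 8 genes out of 49315 in the count tables: Dmd, Utrn, Dag1, Sgca, Sgcb, Sgcd, Dtna and Sspn. They were taken by gene symbol, and each matched 1 Ensembl identifier. All 8 passed the filter on low counts, as did 16650 genes in all. The libraries were bulk RNA sequencing of the gastrocnemius, the large calf muscle, from mice aged 3 months on a mixed C57BL/6 and 129 background. One group of 3 libraries was labelled WT, and the other group of 3 was labelled mKO, for a knockout of Hnrnpu restricted to muscle. Hnrnpu encodes a nuclear RNA-binding protein. The driver of the knockout, the deleted exons, the control alleles and whether each library came from a separate animal are not stated in the labels, so p-values measure only the spread between these libraries.

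The complex spans the membrane of the muscle fibre and ties the actin cytoskeleton inside it to laminin in the basement membrane outside. Dystrophin binds actin at one end and beta-dystroglycan at the other, and the sarcoglycans and sarcospan form a side assembly in the membrane that steadies this link. Dystrobrevin binds dystrophin and recruits syntrophins, and utrophin is the close relative of dystrophin that forms a similar complex, in adult fibres mostly at nerve-muscle and muscle-tendon contacts. Loss of dystrophin or of a sarcoglycan is a known cause of muscular dystrophy.

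Total counts ran from 32108684 to 42344238. Levels are given as CPM, counts per 1000000 counts of a library after scaling by TMM, a method that sets the bulk of genes equal between libraries. Hnrnpu itself was at 233, 235 and 247 CPM in WT and at 209, 210 and 205 CPM in mKO. Its log2 fold change of -0.20 did not pass (edgeR adjusted p = 0.147) and was 0.27 with library totals in place of TMM (adjusted p = 0.0402). These counts are summed over the whole gene, and the deleted exons are not stated. The values therefore test no exon deletion, and the directions given are those of the labels.

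Dmd and the genes of alpha-, beta- and delta-sarcoglycan were lower in mKO muscle, while utrophin, dystroglycan, dystrobrevin and sarcospan did not pass the test. With TMM scaling, 4 of the 8 genes fell and none rose by the quasi-likelihood test of edgeR at an adjusted p under 0.05. Sgca was 2.03-fold lower, Dmd 1.85-fold, Sgcb 1.63-fold and Sgcd 1.503-fold. Among all tested genes 37.0% were called, 18.9% lower and 18.2% higher, so that calls in either direction were frequent in this comparison. The median log2 fold change of the 8 genes was -0.40, against 0.02 over all tested genes. WT and mKO libraries did not overlap for 6 of the 8 genes, and 49.3% of all tested genes had no overlap. In bulk tissue, fewer cells of a type and less RNA per cell cannot be told apart.

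**Figure D1:**
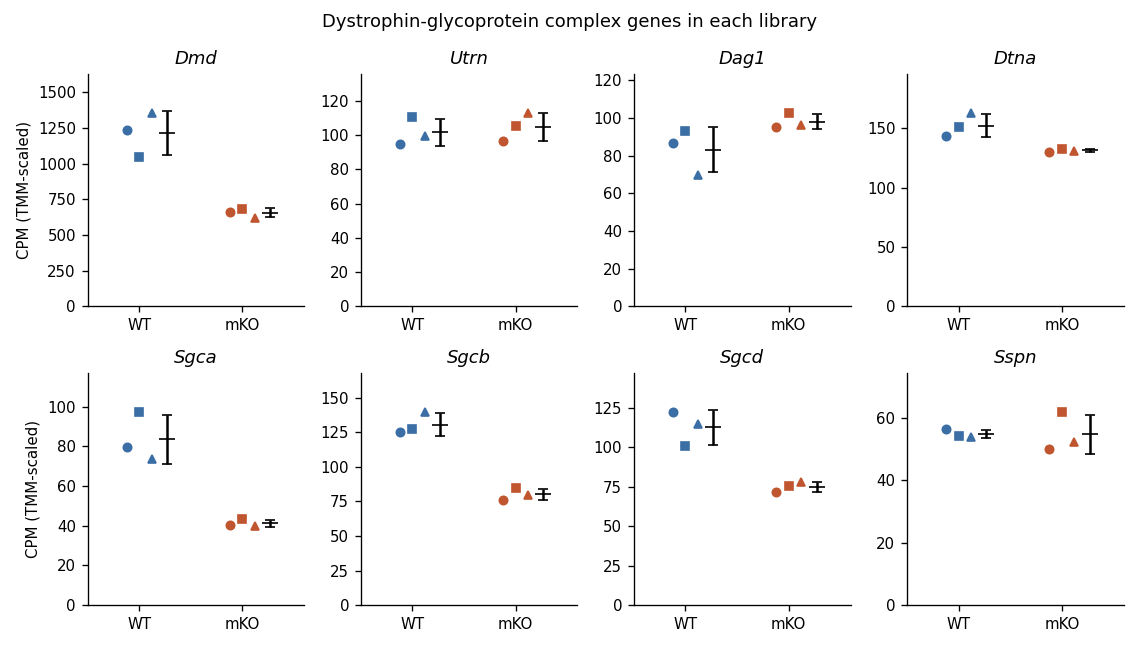
Level of each complex gene in each library, in TMM-scaled CPM (vertical axes from 0), for WT (blue) and mKO (orange). Circles, squares and triangles are replicates 1, 2 and 3, and the black bar is the mean ± SD of 3 libraries. The mKO points of Dmd, Sgca, Sgcb and Sgcd lie below all WT points, and those of Utrn and Sspn overlap WT.

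Dmd encodes dystrophin, the rod-shaped protein on which the complex is built. The gene (ENSMUSG00000045103) spans 82948870 to 85206141 on chromosome X of GRCm38, plus strand. WT replicates 1 to 3 had 1237, 1049 and 1355 CPM of Dmd. In mKO replicates 1 to 3 it was 661, 683 and 621 CPM. Every mKO library lay below the lowest WT library, and the WT libraries were the more spread of the 2 groups. The means were 1214 ± 155 and 655 ± 31.4 CPM (SD, n = 3), a log2 fold change of -0.89 (SE 0.12, 95% interval -1.15 to -0.63, edgeR adjusted p = 0.000122). Because Dmd is X-linked, the sex of the libraries was checked: all 6 showed Y-linked Ddx3y, at 5171 to 7540 counts, and at most 13 counts of Xist.

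Sgca encodes alpha-sarcoglycan, the sarcoglycan made almost only in striated muscle. Its gene (ENSMUSG00000001508) spans bases 94962791 to 94976327 of chromosome 11, minus strand. WT replicates 1 to 3 had 79.4, 97.3 and 73.7 CPM, and mKO replicates 1 to 3 had 40.4, 43.2 and 39.9 CPM. The groups were far apart, and the 3 mKO values lay close together. Sgca fell from 83.5 ± 12.3 to 41.2 ± 1.745 CPM (SD, n = 3), with a log2 fold change of -1.02 (SE 0.12, 95% interval -1.29 to -0.75, edgeR adjusted p = 4.67e-05).

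The start regions of Dmd and Sgca, which fell under both scalings described below, are shown beside those of Utrn and Dag1, which did not fall under either. A promoter entry of RefSeq (GRCm38.p6) existed for 7 of the 8 genes, and each holds 300 bases, 250 before the start site and 50 from it on. The windows shown are chrX:82948620-82948919 on the plus strand for Dmd, and on the minus strand chr11:94976278-94976577 for Sgca, chr10:12861686-12861985 for Utrn and chr9:108263909-108264208 for Dag1. Capitals mark matches, on either strand, to the E-box (CANNTG), the motif of the MyoD family, and to the CArG box (serum response factor) and the MEF2 site.
Dmd: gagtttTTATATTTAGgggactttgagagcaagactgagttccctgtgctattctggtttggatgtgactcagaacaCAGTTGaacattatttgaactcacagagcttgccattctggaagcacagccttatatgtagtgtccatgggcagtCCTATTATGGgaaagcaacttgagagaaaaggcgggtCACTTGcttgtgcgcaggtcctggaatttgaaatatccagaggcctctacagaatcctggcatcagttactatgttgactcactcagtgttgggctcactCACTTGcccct
Sgca: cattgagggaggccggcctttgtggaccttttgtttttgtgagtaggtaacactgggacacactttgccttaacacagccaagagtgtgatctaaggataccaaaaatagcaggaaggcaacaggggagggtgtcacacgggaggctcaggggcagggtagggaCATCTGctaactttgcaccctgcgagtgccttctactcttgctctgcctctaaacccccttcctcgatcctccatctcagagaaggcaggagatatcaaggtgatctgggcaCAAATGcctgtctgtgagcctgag
Utrn: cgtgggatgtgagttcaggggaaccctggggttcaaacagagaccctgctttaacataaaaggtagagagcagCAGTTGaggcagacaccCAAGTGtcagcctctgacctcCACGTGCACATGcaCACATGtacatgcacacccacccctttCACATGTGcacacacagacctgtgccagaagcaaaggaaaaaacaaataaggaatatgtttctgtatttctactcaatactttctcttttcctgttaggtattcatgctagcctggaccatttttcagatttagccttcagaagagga
Dag1: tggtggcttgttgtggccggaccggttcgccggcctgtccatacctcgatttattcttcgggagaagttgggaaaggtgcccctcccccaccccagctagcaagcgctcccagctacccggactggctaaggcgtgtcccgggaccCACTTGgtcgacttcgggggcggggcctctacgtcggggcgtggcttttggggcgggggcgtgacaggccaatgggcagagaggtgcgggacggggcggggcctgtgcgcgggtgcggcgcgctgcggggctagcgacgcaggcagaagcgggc

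Of these 4 windows, that of Dmd was the only one with a CArG box, 98 bases before the start site, and with a MEF2 match, 244 bases before it. The MEF2 match overlaps the only TATAAA match of the 4. That match lies on the opposite strand, 245 bases before the start site, and is not at the place of a core TATA box. Of 32851 promoter windows of the same length, 1.63% hold a CArG match, 3.19% a MEF2 match and 13.6% a TATAAA match. E-boxes are common, with a match in 72.3% of windows. The Dmd window held 3, that of Sgca 2 and that of Dag1 1, while that of Utrn held 7, of which 2 overlap. None held the ETS core CCGGAA, which 14.9% of windows hold. The Dag1 window was rich in G and C (69.7%, against 45.7% in Dmd and 46.0% in Utrn) and held 3 copies of the Sp1 box GGGCGG on either strand, which 35.7% of windows hold at least once. Dmd, Dag1 and Utrn have other annotated starts outside these windows, and the counts sum over all of them. A second Dmd entry, not shown, had 62.7% G and C, 3 Sp1 boxes and no E-box, CArG or MEF2 match. The windows of Sgcb and Sgcd, which were called lower with TMM only, held no CArG or MEF2 match either. That of Sgcb held a TATAAA match 241 bases before the start site. A match describes the letters only, since no binding was measured.

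Sgcb and Sgcd encode beta- and delta-sarcoglycan, which form the core of the sarcoglycan assembly. Both are minus-strand genes. Sgcb (ENSMUSG00000029156) spans 73632749 to 73647790 on chromosome 5, and Sgcd (ENSMUSG00000020354) spans 46896253 to 47988969 on chromosome 11. WT replicates 1 to 3 had 124.9, 127 and 139.7 CPM of Sgcb, and mKO replicates 76.2, 84.4 and 79.6 CPM. Sgcd was at 122.6, 101 and 114.9 CPM in WT and at 71.5, 75.8 and 78.0 CPM in mKO. Neither gene had an mKO library within the WT range. The log2 fold change was -0.71 for Sgcb (SE 0.11, edgeR adjusted p = 0.000258) and -0.59 for Sgcd (SE 0.11, edgeR adjusted p = 0.00132). Summed over Sgca, Sgcb and Sgcd, WT libraries held 327, 325 and 328 CPM, and mKO libraries 188, 203 and 198 CPM.

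Utrn (ENSMUSG00000019820), the utrophin gene, spans 12382188 to 12861735 on chromosome 10, minus strand. Its level was 94.96, 110.4 and 99.4 CPM in WT replicates 1 to 3 and 96.5, 105.3 and 112.8 CPM in mKO replicates 1 to 3. The groups overlapped, with a log2 fold change of 0.05 (95% interval -0.20 to 0.29, edgeR adjusted p = 0.782). At this scaling the interval holds no rise or fall of the size seen for Dmd.

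Dag1 encodes dystroglycan, whose alpha chain binds laminin and whose beta chain binds dystrophin or utrophin. The gene (ENSMUSG00000039952) spans 108204634 to 108263958 on chromosome 9, minus strand. WT libraries had 86.6, 93.4 and 69.8 CPM and mKO libraries 95.5, 102.7 and 96.1 CPM. The 3 mKO libraries were above the 3 WT libraries, by little more than 2 CPM at the nearest pair, and WT replicate 3 was the lowest. The log2 fold change of 0.24 did not pass (95% interval -0.03 to 0.50, edgeR adjusted p = 0.152).

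Sspn encodes sarcospan, the small membrane protein that binds the sarcoglycans, and its gene (ENSMUSG00000030255) spans 145931641 to 145965223 on chromosome 6, plus strand. Its level was 56.4, 54.2 and 53.9 CPM in WT replicates 1 to 3 and 50.04, 62.0 and 52.4 CPM in mKO replicates. The mKO values lay on both sides of the WT values. The fitted log2 fold change was -0.00046, with a 95% interval from -0.24 to 0.24 (edgeR adjusted p = 0.997). The exons of Sspn share 69 of 4996 bases with Sspnos on the opposite strand, which had at most 5 counts in any library, and no other member shared exon bases with another gene.

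Dtna encodes alpha-dystrobrevin and its gene (ENSMUSG00000024302) spans 23415415 to 23659714 on chromosome 18, plus strand. WT libraries had 143.1, 150.6 and 162.7 CPM and mKO libraries 130.2, 132.6 and 131.1 CPM. All mKO values were lower than all WT values, yet the log2 fold change of -0.21 did not pass (95% interval -0.44 to 0.01, edgeR adjusted p = 0.132). It was the gene with the least spread in mKO, with a coefficient of variation of 0.935% over 3 libraries. Over all 8 genes this spread ran from 2.44% (Sspn) to 14.8% (Sgca) in WT and from 0.935% to 11.6% (Sspn) in mKO, against medians over all tested genes of 15.1% and 12.3%. The tested genes include many with far fewer counts than the members, and the spread was not compared at matched counts.

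The calls of several members, and the signs of Dtna and Sspn, rested on the scaling of the libraries. TMM factors were 0.845 to 0.859 in WT and 1.15 to 1.2 in mKO, and scaling to library totals instead raised log2 fold changes by a median of 0.465. Under library totals 55.8% of all tested genes were called, 49.0% higher and 6.75% lower. Of the 8 members, Dmd (log2 -0.42, edgeR adjusted p = 0.0102) and Sgca (log2 -0.55, adjusted p = 0.00222) were still called lower. Sgcb (-0.24, adjusted p = 0.0691) and Sgcd (-0.12, adjusted p = 0.363) no longer passed. Utrn (0.51, adjusted p = 0.00184), Dag1 (0.70, adjusted p = 0.000506) and Sspn (0.46, adjusted p = 0.00392) were called higher, and Dtna was at 0.25 (adjusted p = 0.0537). The median over all genes was 0.49 at this scaling; Dag1 lay above it, and Utrn and Sspn lay near it.

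**Figure D2:**
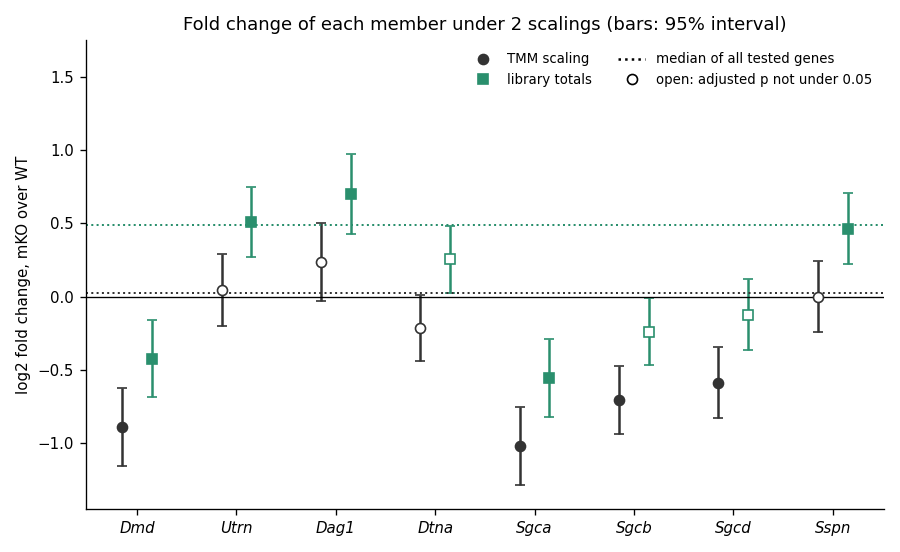
Log2 fold change of mKO over WT for each member with TMM scaling (dark circles) and with library totals (green squares). Bars are 95% intervals, dotted lines the median of all tested genes at each scaling (0.02 and 0.49), and open symbols mark values that did not pass. Dmd and Sgca lie below 0 under both scalings.

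Ratios between members within a library do not depend on scaling. For every 100 counts of Dmd, WT replicates 1 to 3 had 7.68, 10.5 and 7.33 counts of Utrn, and mKO replicates 14.6, 15.4 and 18.2. All 3 mKO libraries lay above WT, and the ratio of the geometric means was 1.91. The ratio of Dag1 to Dmd went from 7.001, 8.90 and 5.15 counts per 100 in WT to 14.4, 15.0 and 15.5 in mKO, 2.19 times as high. Sspn had 4.56, 5.17 and 3.98 counts per 100 of Dmd in WT and 7.57, 9.09 and 8.45 in mKO (1.84 times), and Dtna 11.6, 14.4 and 12.0 against 19.7, 19.4 and 21.1 (1.595 times). These 4 ratios did not overlap between groups.

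The ratios of the sarcoglycans to Dmd had smaller differences. Counts of Sgcd per 100 of Dmd were 9.91, 9.64 and 8.48 in WT and 10.8, 11.1 and 12.6 in mKO, without overlap and 1.23 times as high. The ratio of Sgcb to Dmd overlapped between groups (10.1, 12.1 and 10.3 against 11.5, 12.4 and 12.8), and so did that of Sgca (6.42, 9.28 and 5.44 against 6.11, 6.32 and 6.43). The log2 difference of the Sgca to Dmd ratio was -0.13, and it turned to 0.09 without WT replicate 2, the library with the lowest Dmd and the highest Sgca of its group. Among the sarcoglycans, the ratio of Sgca to Sgcd was lower in every mKO library (56.5, 56.9 and 51.2 counts per 100 against 64.8, 96.3 and 64.1). Sgca to Sgcb and Sgcb to Sgcd overlapped.

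The exact two-sided permutation p was 0.1 for each of the 6 ratios without overlap, the smallest that 3 against 3 libraries allow, and 0.167 after Benjamini-Hochberg adjustment over 10 ratios. For the other 4 ratios the exact permutation p was 0.2 to 0.8. No ratio could pass 0.05 in this design. The 7 ratios to Dmd share their denominator and are not independent of each other.

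**Figure D3:**
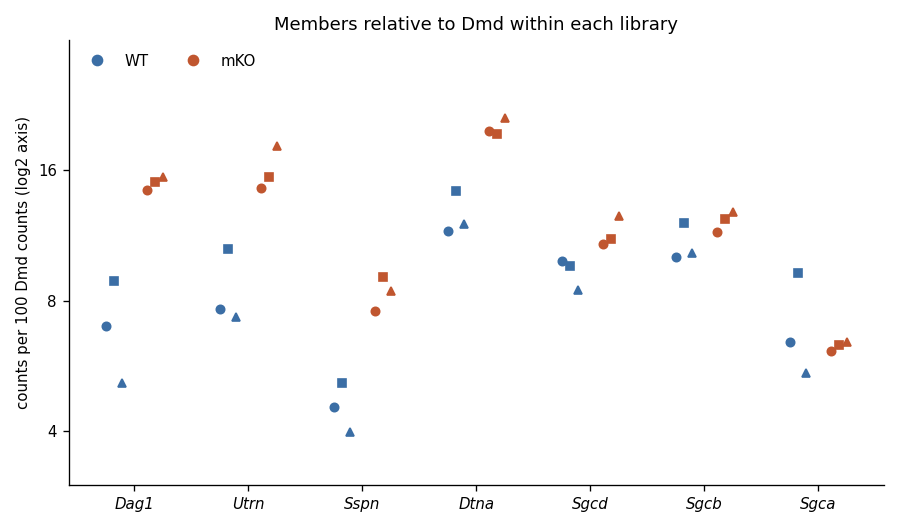
Counts of each member per 100 counts of Dmd in the same library, on a log2 axis, for WT (blue) and mKO (orange); circles, squares and triangles are replicates 1, 2 and 3. For Dag1, Utrn, Sspn, Dtna and Sgcd all mKO points lie above all WT points, and for Sgcb and Sgca the groups overlap.

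Compared between genes, levels are given per kilobase of listed exon. In WT the order of TMM-scaled CPM per kilobase was Dmd (51.0 ± 6.50, SD, n = 3), Sgca (48.1 ± 7.11), Sgcb (32.2 ± 1.97), Dtna (23.1 ± 1.503), Sgcd (13.7 ± 1.32), Dag1 (13.1 ± 1.91), Sspn (11.0 ± 0.268) and Utrn (8.21 ± 0.643). Dmd and Sgca did not differ beyond their spread, nor did Sgcd and Dag1. In mKO, Dmd (27.5 ± 1.32) and Sgca (23.7 ± 1.01) still led, Dtna (19.9 ± 0.186) and Sgcb (19.8 ± 1.01) were level, and Dag1 (15.4 ± 0.625) stood above Sspn (11.0 ± 1.27), Sgcd (9.10 ± 0.402) and Utrn (8.47 ± 0.661). The listed exons of Dmd sum to 23801 bases over all isoforms, and those of Sgcd to 8257, while their longest annotated transcripts have 14910 and 4453 bases. With the longest transcript as length, Dmd was at 81.4 ± 10.4 in WT and Sgcd at 25.3 ± 2.45, above Dtna (24.2 ± 1.57) and Dag1 (14.7 ± 2.14). In mKO, Sgcd (16.9 ± 0.745) and Dag1 (17.3 ± 0.702) were then level. At that length Sgca was at 48.4 ± 7.16 in WT and 23.9 ± 1.01 in mKO. Dmd, at 43.9 ± 2.1 in mKO, then stood clear of Sgca in both groups. The place of Sgcd in the order and the closeness of Dmd and Sgca thus rested on the length used.

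As shares of the per-kilobase total of the 8 genes, which are also free of scaling, Dmd held 25.4% ± 3.20 in WT and 20.4% ± 0.772 in mKO (SD, n = 3), and Sgca 24.02% ± 3.54 and 17.6% ± 0.228. The share of Dag1 was 6.54% ± 0.985 in WT and 11.4% ± 0.0477 in mKO, that of Dtna 11.5% ± 0.627 and 14.8% ± 0.422, that of Sspn 5.48% ± 0.199 and 8.12% ± 0.619, and that of Utrn 4.09% ± 0.299 and 6.28% ± 0.503. Sgcd kept nearly the same share (6.82% ± 0.712 and 6.75% ± 0.319). Shares of one total cannot all move in the same direction.

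**Figure D4:**
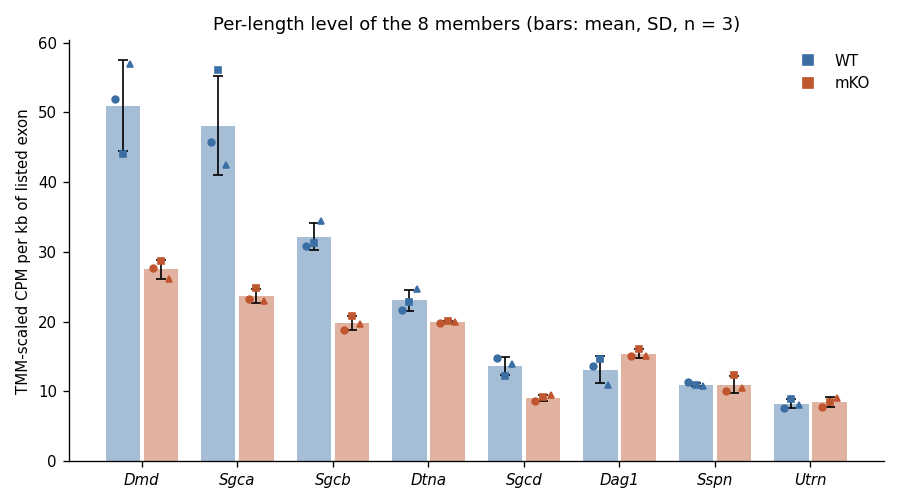
TMM-scaled CPM per kilobase of listed exon for the 8 members, ordered by their WT mean. Bars are means, error bars the SD of 3 libraries, and points single libraries (blue WT, orange mKO). Dmd and Sgca lead in both groups, and Dag1 (15.4) stands above Sgcd (9.10) in mKO, where in WT they were level. With the longest transcript as length, not drawn, Sgcd stood above Dag1 in WT and they were level in mKO. At that length Dmd stood clear of Sgca in both groups.

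Other subunits and the syntrophins, adaptors that bind dystrophin and dystrobrevin, were called about as often as all genes. Of 13 listed genes 11 were tested, of which 3 fell, 1 rose and 7 were not called, against 37.0% called among all tested genes. The median log2 fold change was -0.39. With library totals 3 were higher and 2 lower, with a median of 0.07, against 49.0% and 6.75% of all tested genes. Dtnb, which encodes beta-dystrobrevin, fell from 5.36 ± 0.337 to 1.80 ± 0.385 CPM (SD, n = 3; log2 -1.56, SE 0.21, edgeR adjusted p = 0.000106). Drp2, a short relative of dystrophin known from Schwann cells, had 7.72, 9.63 and 8.73 CPM in WT and 10.6, 10.9 and 19.8 CPM in mKO, where replicate 3 stood apart. Its log2 fold change of 0.66 (SE 0.22, edgeR adjusted p = 0.0333) became 0.31 without mKO replicate 3 (adjusted p = 0.209), and it also lost its call without WT replicate 1 (0.0939) or WT replicate 3 (0.0876). The 9 Schwann cell markers summed to 83.2 CPM in mKO replicate 3 and to 37.2 to 56.0 CPM in the other 5 libraries. Their part in the Drp2 value was not tested. Sgcz and Dytn had no counts in any library.

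The enzymes that build the laminin-binding sugar chain of dystroglycan were mixed. Of 19 listed genes 17 were tested, of which 5 fell and 2 rose, with a median log2 fold change of -0.01. Among all tested genes 37.0% were called, 18.9% lower and 18.2% higher, so the list was called about as often as all genes. B3galnt2, which builds the core of the chain, fell from 192 ± 8.66 to 89.3 ± 4.88 CPM (log2 -1.11), and Rxylt1, which adds xylose, from 47.8 ± 6.65 to 27.0 ± 0.982 CPM (log2 -0.82). Adjusted p-values by edgeR were 8.12e-06 and 0.000199, and both genes were also lower with library totals, at -0.64 and -0.36 (adjusted p = 0.000263 and 0.0224). Dolk, a dolichol kinase, fell by 0.56 on the log2 scale (edgeR adjusted p = 0.0131), with -0.09 under library totals (adjusted p = 0.637) and no call without WT replicate 3 (adjusted p = 0.0536). With library totals 9 of the 17 were higher and 3 lower, against 49.0% and 6.75% of all tested genes.

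Laminins and other matrix partners mostly did not pass. Of 12 listed genes 11 were tested, with 1 higher and 1 lower and a median log2 fold change of -0.01, against 37.0% called among all tested genes. Bgn, which encodes biglycan, a matrix proteoglycan that binds dystroglycan and the sarcoglycans, was at 35.5, 37.9 and 33.8 CPM in WT and rose to 90.0, 66.9 and 82.4 CPM in mKO, with an edgeR adjusted p of 2.18e-05 (log2 1.16, SE 0.13). Lamb1, a laminin beta chain, fell from 65.3 ± 3.42 to 50.5 ± 3.95 CPM (log2 -0.37, edgeR adjusted p = 0.0165), with 0.10 under library totals (adjusted p = 0.477). Lamb1 lost its call without mKO replicate 2 (adjusted p = 0.0619) or mKO replicate 3 (0.091). With library totals 9 of the 11 genes were higher and none lower, where 49.0% of all tested genes were higher and 6.75% lower. Lama5 (log2 -0.23) and Lama4 (log2 -0.16), 2 laminin alpha chains, did not pass (edgeR adjusted p = 0.22 and 0.257). With library totals Lama4 was called higher (log2 0.31, adjusted p = 0.0318) and Lama5 was at 0.24.

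Genes listed as costamere and intermediate filament partners, among them integrin genes and an integrin activator, changed in both directions. All 26 listed genes were tested, of which 11 rose and 5 fell, with a median log2 fold change of 0.21. Calls over all tested genes were 18.2% higher and 18.9% lower. The number that rose was 6 without mKO replicate 3 and 7 without WT replicate 3 or mKO replicate 1, while 5 fell in each of these fits. With library totals 19 were higher and 3 lower, against 49.0% and 6.75% of all tested genes. Synm, which encodes synemin, a filament protein that binds dystrobrevin and desmin, had 1061, 1137 and 1292 CPM in WT and 328, 420 and 396 CPM in mKO (log2 -1.61, SE 0.13, edgeR adjusted p = 2.63e-06). Cmya5, which encodes myospryn, a partner of dysbindin and desmin, fell from 6691 ± 527 to 2902 ± 199 CPM (log2 -1.205). Fermt2, an integrin activator, fell from 213 ± 10.4 to 124 ± 5.50 CPM (log2 -0.78), and Mlip, a lamin-interacting muscle gene, rose from 65.0 ± 2.24 to 122.8 ± 10.1 CPM (log2 0.92). The edgeR adjusted p for the last 3 was between 9.28e-06 and 0.000112, and all 4 kept their direction and call with library totals. The median of the list, 0.21, was above that of all genes at TMM scaling (0.02), as it was with library totals (0.67 against 0.49). The change of scaling moves most genes by a similar amount, so the second gap repeats the first. The list was also chosen with earlier results of these data known, and no conclusion is drawn from its median.

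**Figure D5:**
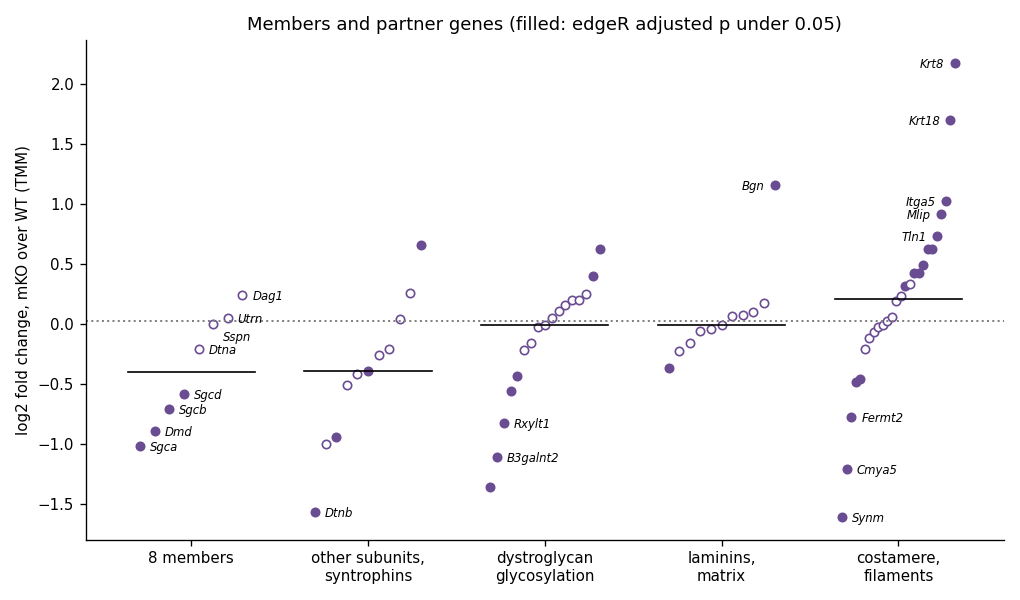
Log2 fold change (TMM scaling) of the tested members and of 4 lists of partner genes, each point 1 gene and sorted within its list. Filled points passed an edgeR adjusted p under 0.05, black lines are list medians, and the dotted line is the median of all tested genes (0.02). Of the 8 members 4 are filled, all below 0, and in the costamere list 11 of 26 are filled above 0.

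The cell types of the muscle were followed by marker lists. Of all tested genes, 18.2% were called higher and 18.9% lower with TMM. With library totals these shares were 49.0% and 6.75%, so that a higher call was frequent at that scaling. The 10 muscle fibre markers summed to 291555 to 317470 CPM in WT and 186232 to 221527 CPM in mKO, and 6 of them fell and none rose. Most of this sum was Ttn, at 172820 ± 617 CPM in WT and 143911 ± 16609 CPM in mKO, which did not pass (edgeR adjusted p = 0.126). With library totals in place of TMM, Ttn was at 147009 ± 1733 in WT and 168777 ± 17391 in mKO. The summed fibre markers then overlapped between groups, so their separation rested on the scaling. Of the other cell types, all 9 macrophage markers rose (254 to 307 CPM summed in WT, 560 to 914 in mKO), and 8 of 9 endothelial markers fell (323 to 414 against 200 to 220 CPM). Of 8 smooth muscle and pericyte markers 3 fell and 1 rose (685 to 745 against 367 to 400 CPM). Most of that sum was Rgs5, at 581 ± 28.4 CPM in WT and 258 ± 16.9 CPM in mKO, while Acta2 rose from 26.0 ± 3.28 to 38.5 ± 3.82 CPM. Of 10 markers of fibro-adipogenic progenitors 3 rose (3537 to 3984 against 3724 to 4334 CPM). Of 7 satellite cell markers 3 rose and 1 fell (24.7 to 28.1 against 33.1 to 38.2 CPM), and the summed Schwann cell, adipocyte and tendon markers overlapped between groups, with 1 of the 5 tendon markers higher and none of the others called. Every one of these markers had counts, and their part in the values of the complex genes was not tested. With library totals the 9 macrophage markers were again higher, while 5 muscle fibre and 3 endothelial markers were lower. At that scaling 8 of the 10 fibro-adipogenic markers, 4 of the 7 satellite cell markers, 3 of the 5 tendon markers and 2 of the 9 Schwann cell markers were higher and none of them lower, and smooth muscle markers had 2 higher and 2 lower. No adipocyte marker was called. With TMM, none of the satellite cell markers rose without mKO replicate 1 and 1 rose without mKO replicate 3, and 1 fibro-adipogenic marker rose without WT replicate 3 or mKO replicate 3.

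The genes most like Dmd across the 6 libraries, by Pearson correlation of log2(CPM + 1) among 7116 genes with a mean of at least 10 CPM, were Scrn3 (0.999), Ltn1 (0.998) and Gtpbp10 (0.998). Those most like Utrn were Rsu1 (0.94), Tent4b (0.918) and Itpr2 (0.914). Genes with predicted names were left out. The points share library and scaling, and the difference of Dmd between the groups enters its correlations. The named genes were picked as the highest of 7116 over 6 libraries, so these values are a description only. Ltn1, a ubiquitin ligase of stalled ribosomes, went from 82.5 ± 8.03 to 47.0 ± 2.42 CPM (log2 -0.81, edgeR adjusted p = 0.000131), while Scrn3 did not pass (log2 -0.26, edgeR adjusted p = 0.0664, and 0.04 without WT replicate 2).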

How the data were processed

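RNA of 6 gastrocnemius libraries, 3 WT and 3 mKO by sample title, was analysed. Each deposited file holds unnormalized counts for 1 library, 1 value for each Ensembl gene with its exons listed in the header columns. The submitters' processing notes name STAR 2.5.2b, Trimmomatic 0.36, Subread 1.5.2 with its counter featureCounts, and the build GRCm38. Whether strand was used and how multiply mapped reads were treated is not stated, so reads of genes that overlap or share sequence could be split.

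Groups were compared in edgeR 4.0.16 (R 4.3.3) by its quasi-likelihood test with TMM factors, the default filter by group, group as the only term and Benjamini-Hochberg adjustment over 16650 genes at 0.05. Standard errors come from the test's F value. The test was first run on simulated counts in which 200 genes were changed in random directions, with no scaling difference between the groups. That run cannot decide between TMM and library totals, because it held no such difference. Gene symbols matched 48970 of 49315 identifiers. No pair of replicates was a duplicate deposit, since their counts differed by a chi-square of at least 20.9 per degree of freedom. Member ratios were compared by exact permutation in scipy 1.17.1. The members and lists were chosen with earlier results of these data known.

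Named were the 8 members, Hnrnpu, called genes of the subunit list, up to 4 genes of each other partner list by lowest p, and the 3 genes most like Dmd and Utrn. Of the marker genes, which the rule also covers, only sums and counts are given, with values for Ttn, Rgs5 and Acta2. Alternatives were DESeq2 1.42.0, limma-voom (limma 3.58.1), other scalings and filters, robust dispersion, omission of abundant genes, a replicate block and leaving out each library. Gene lengths of the longest transcript were tried after seeing the data. Some genes that the rule covers are not reported here. Splicing was not analysed here.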

Additional observations from a re-analysis of the deposited data

How the results depend on the processing

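Of the 8 members, 4 were called lower and none higher under each alternative other than library totals: RLE and upper-quartile scaling, DESeq2, limma-voom, both filters, robust dispersion, omission of mitochondrial and the 10 most abundant genes, and each of the 6 fits without 1 library. With library totals 5 were called, 3 higher and 2 lower, and all genes called rose from 6166 to 9283. At that scaling Sspn turned from a log2 change of -0.00046 to 0.46, Dtna from -0.21 to 0.25 and Hnrnpu from -0.20 to 0.27. Lamb1 turned to 0.0964, Lama4 to 0.31 and Itgb1 to 0.0065. The partner lists then had 12 calls for dystroglycan glycosylation (7 with TMM) and 9 for laminins and matrix (2 with TMM). This follows from the scaling, since TMM factors differed between the groups.

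Leaving out each library gave 2 to 5 calls in the subunit list (4 with all libraries; 2 without mKO replicate 3), 4 to 7 in the glycosylation list (4 without WT replicate 3), 1 to 2 in the laminin list (1 without mKO replicate 2 or 3) and 11 to 18 in the costamere list (16 with all libraries), of which 6 to 13 were higher. The log2 difference of the Sgca to Dmd ratio ranged from -0.30 to 0.09, the latter without WT replicate 2. The other 9 ratios kept their direction.

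Same-numbered WT and mKO libraries did not deviate together (correlations 0.021, 0.00087 and 0.019), so the numbers were not taken as pairs. With the replicate number as a block, 5519 genes were called, and 4 members were called, all lower.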

Other observations

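Integrin genes, whose products link the muscle fibre to the matrix beside the dystrophin complex, were chosen after their values were seen and changed in both directions. Itga7, the muscle integrin chain that binds laminin, was at 63.5 ± 9.503 CPM in WT and rose to 97.8 ± 7.07 CPM in mKO (SD, n = 3; log2 0.62, edgeR adjusted p = 0.00198), and Itga5, a fibronectin receptor chain, from 7.58 ± 1.76 to 15.4 ± 0.165 CPM (log2 1.02, edgeR adjusted p = 0.000363). Itgb1, the beta chain both pair with, fell from 316 ± 23.8 to 230 ± 18.6 CPM (log2 -0.46, edgeR adjusted p = 0.00669), with 0.01 under library totals (adjusted p = 0.966).

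Krt8 and Krt18, keratins that pair into filaments, were also chosen after their values were seen. They were at the edge of detection. Krt8 had 4, 3 and 2 counts in WT and 13, 15 and 25 in mKO, and Krt18 had 5, 3 and 19 counts in WT and 56, 24 and 32 in mKO. Krt19, the third keratin listed, overlapped between groups, with 17, 18 and 11 counts in WT and 22, 4 and 31 in mKO (log2 -0.03, edgeR adjusted p = 0.9749). Krt8 and Krt18 passed the test (edgeR adjusted p = 0.0149 and 0.0347), but Krt8 not without WT replicate 3 or mKO replicate 3 (0.0733 and 0.0912), and Krt18 not without WT replicate 1 or 2 or mKO replicate 1 or 3 (0.0705 to 0.141). Des, which encodes desmin, the main intermediate filament of muscle, rose from 1154 ± 132 to 1547 ± 92.9 CPM (log2 0.42, edgeR adjusted p = 0.0149), and without mKO replicate 3 its adjusted p was 0.0546.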
